A study of Mus musculus with 12 samples.

Results

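The genes described here encode the folding machinery of the endoplasmic reticulum (ER) and the unfolded protein response that controls it. They were 32 genes, listed by symbol, whose rows in the deposited liver table had a mean of at least 0.5 RPKM, a unit that scales reads to the length of the gene and the total of the library. The table held 24475 genes, of which 11347 passed that limit and were tested. All 32 listed genes were in the table and all 32 passed, the lowest being Derl3. Polyadenylated RNA of whole liver was sequenced in strand-specific libraries from fed mice, 6 wild-type (WT) and 6 lacking Gcg (Gcg KO), the gene of the glucagon precursor. Both groups were labelled as fed liver and differed in the labels by genotype alone. The sources used here do not give the strain, age or sex of the mice or how the Gcg allele was made. The study asked, by its title, how glucagon contributes to the zonation of the liver. WT libraries carry the numbers 1 to 6 and Gcg KO libraries 7 to 12, as in their titles. Whether each library came from a mouse of its own is not stated in the labels, so the p-values refer to the spread among these 12 libraries, part or all of which could be technical.

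Secreted and membrane proteins enter the ER through the Sec61 channel and fold there with the help of chaperones of the Hsp70 and Hsp90 families, the lectin chaperones and the protein disulfide isomerases. Proteins that fail to fold are drawn back to the cytosol and degraded. When unfolded proteins build up, 3 sensors in the ER membrane, Ern1 (IRE1), Atf6 and Eif2ak3 (PERK), start the unfolded protein response. IRE1 splices the Xbp1 message, ATF6 is cut to release a transcription factor, and PERK slows translation and favours ATF4. Spliced XBP1 and cleaved ATF6 act on promoters through short elements such as the ER stress response element (ERSE). Hepatocytes secrete most plasma proteins and hold much ER, and feeding is known to raise part of this response in liver. Gene-level RPKM does not show the splicing of Xbp1, the cleavage of ATF6 or the phosphorylation of PERK, so the activity of the sensors was not measured.

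Some promoters of these genes hold elements already known from this response. The genes and the elements were thus not chosen independently, and the shares below are a description and no test. RefSeq promoter windows of GRCm38.p6 ran from 250 bases before to 50 bases after a gene's start. They were matched by Entrez identifier for 26 of the 32 genes. Atf6, Derl1, Hyou1, Manf, Sec61a1 and Ssr2 were not matched. The ERSE, which is CCAAT, any 9 bases and then CCACG, was searched on both strands and lay in 9 of the 26 (34.6%), namely Calr, Canx, Creld2, Derl3, Dnajc3, Hsp90b1, Hspa5, Pdia6 and Syvn1. Of 27025 genes with a window of the same length, 37 held it (0.137%). The related element ERSE-II, which is ATTGG, any base and then CCACG, lay in Dnajb11 and Herpud1 (7.69% of the 26) against 12 genes in all (0.0444%). The element TGACGTGG, which XBP1 is known to bind, was in 0 of the 26 windows (0.714% of all genes), and the cyclic AMP response element TGACGTCA in 0 (2.03% of all genes). No match overlapped another. A match is a description of letters and not evidence that a factor binds there in these livers.

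The 250 bases before the start are printed for Hspa5, whose level the other genes are compared with below, for Creld2, whose level varied most among the 31 genes with a mean of at least 10 RPKM, and for Herpud1, which carries ERSE-II and behaved unlike the rest. They run 5′ to 3′ on the gene's own strand, with the element in capitals. In Creld2 the ERSE lies on the opposite strand, so its reverse complement is capitalised.
Hspa5 (chr2:34771840-34772089, plus strand): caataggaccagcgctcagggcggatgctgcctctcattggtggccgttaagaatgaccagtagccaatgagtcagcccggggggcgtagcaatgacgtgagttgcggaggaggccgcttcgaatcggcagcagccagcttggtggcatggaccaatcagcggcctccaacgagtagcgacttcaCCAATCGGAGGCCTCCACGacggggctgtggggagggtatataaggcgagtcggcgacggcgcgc
Creld2 (chr15:88819396-88819645, plus strand): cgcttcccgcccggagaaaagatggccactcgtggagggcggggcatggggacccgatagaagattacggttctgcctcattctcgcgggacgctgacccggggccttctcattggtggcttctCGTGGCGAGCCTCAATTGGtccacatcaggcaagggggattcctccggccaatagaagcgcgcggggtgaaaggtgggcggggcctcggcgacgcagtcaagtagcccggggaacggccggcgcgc
Herpud1 (chr8:94386179-94386428, plus strand): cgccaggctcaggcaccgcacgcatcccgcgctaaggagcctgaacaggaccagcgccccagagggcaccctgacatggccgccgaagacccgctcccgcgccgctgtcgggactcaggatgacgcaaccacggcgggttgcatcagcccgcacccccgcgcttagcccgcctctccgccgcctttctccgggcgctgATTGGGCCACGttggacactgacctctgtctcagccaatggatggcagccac

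The other ERSE matches are shown with 8 bases on each side, written on the strand on which CCAAT comes first, so that the 9 free bases between the fixed ends can be compared. Hsp90b1 holds a pair of them, 1 on each strand.
Calr (chr8:84847067-84847101, plus strand): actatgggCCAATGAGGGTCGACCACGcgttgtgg
Canx (chr11:50325792-50325826, minus strand): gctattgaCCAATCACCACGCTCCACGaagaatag
Derl3 (chr10:75893234-75893268, minus strand): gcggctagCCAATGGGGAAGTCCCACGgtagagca
Dnajc3 (chr14:118937819-118937853, plus strand): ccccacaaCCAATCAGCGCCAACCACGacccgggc
Hsp90b1 distal (chr10:86705630-86705664, minus strand): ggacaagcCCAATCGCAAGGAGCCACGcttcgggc
Hsp90b1 proximal (chr10:86705525-86705559, plus strand): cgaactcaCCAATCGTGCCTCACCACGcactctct
Pdia6 (chr12:17266483-17266517, plus strand): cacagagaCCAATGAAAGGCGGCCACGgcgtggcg
Syvn1 (chr19:6046524-6046558, plus strand): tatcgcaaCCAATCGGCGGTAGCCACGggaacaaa
The letters at the ends are the same by construction of the search.

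Depth, estimated from the lowest RPKM steps, was about 10200000 to 15000000 reads per library. Alb, the serum albumin gene that marks hepatocytes, lay between 22432 and 31956 RPKM. Gcg was listed at 0 RPKM in all 12 libraries, WT included, and so it checked no label. In 3 libraries, WT 6, Gcg KO 10 and Gcg KO 12, Igfbp1 was 6.22, 14.2 and 9.35 RPKM, against 159 to 738 RPKM in the other 9. Igfbp1 encodes an insulin-like growth factor binding protein that insulin is known to suppress. Results are therefore given for all 12 libraries and for the 9 with at least 50 RPKM of Igfbp1 (5 WT and 4 Gcg KO).

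No gene of the 32 passed the test between Gcg KO and WT liver. With limma on log2(RPKM + 0.5) and Benjamini-Hochberg adjustment over all tested genes, 0 of 32 passed an adjusted p of 0.05 in either direction, where 3.87% of all tested genes passed (1.95% higher and 1.92% lower in Gcg KO). At an unadjusted p below 0.05 there was 1 of 32, Ern1, against 15.7% of all tested genes. For 0 of the 32 did the 6 Gcg KO libraries lie wholly above or below the 6 WT libraries, against 3.09% of all tested genes. The log2 fold change, Gcg KO over WT, was above 0 for 14 genes and below 0 for 18, with a median of -0.02 (0.01 over all tested genes). These are levels of whole liver RNA, in which fewer cells of a type and less RNA per cell cannot be told apart.

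Over 12 libraries the 95% confidence interval of the fold change lay within 2-fold in either direction for 32 of 32 genes and within 1.5-fold for 24. The 8 genes whose interval went past 1.5-fold were Sdf2l1, Manf, Dnajb9, Creld2, Ssr1, Herpud1, Derl3 and Ern1. Ern1 was among them through its fold change, given below, and not through a wide spread. Without the 3 libraries of low Igfbp1, again 0 of 32 passed, where 2.65% of all tested genes did. The fold change was then above 0 for 26 genes and below 0 for 6, and 12 genes changed sign. The intervals were wider: 22 of 32 lay within 1.5-fold, and those of Dnajb9, Creld2 and Derl3 reached past 2-fold, with upper limits of 1.07, 1.21 and 1.32 on the log2 scale. The median over the 32 became 0.11, and that over all tested genes -0.01. Levels of these genes varied together, as described below, so their signs are not independent. Against each gene's mean, the median log2 difference of the 32 was 0.10 in WT 6, -0.25 in Gcg KO 10 and -0.15 in Gcg KO 12.

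**Figure D1:**
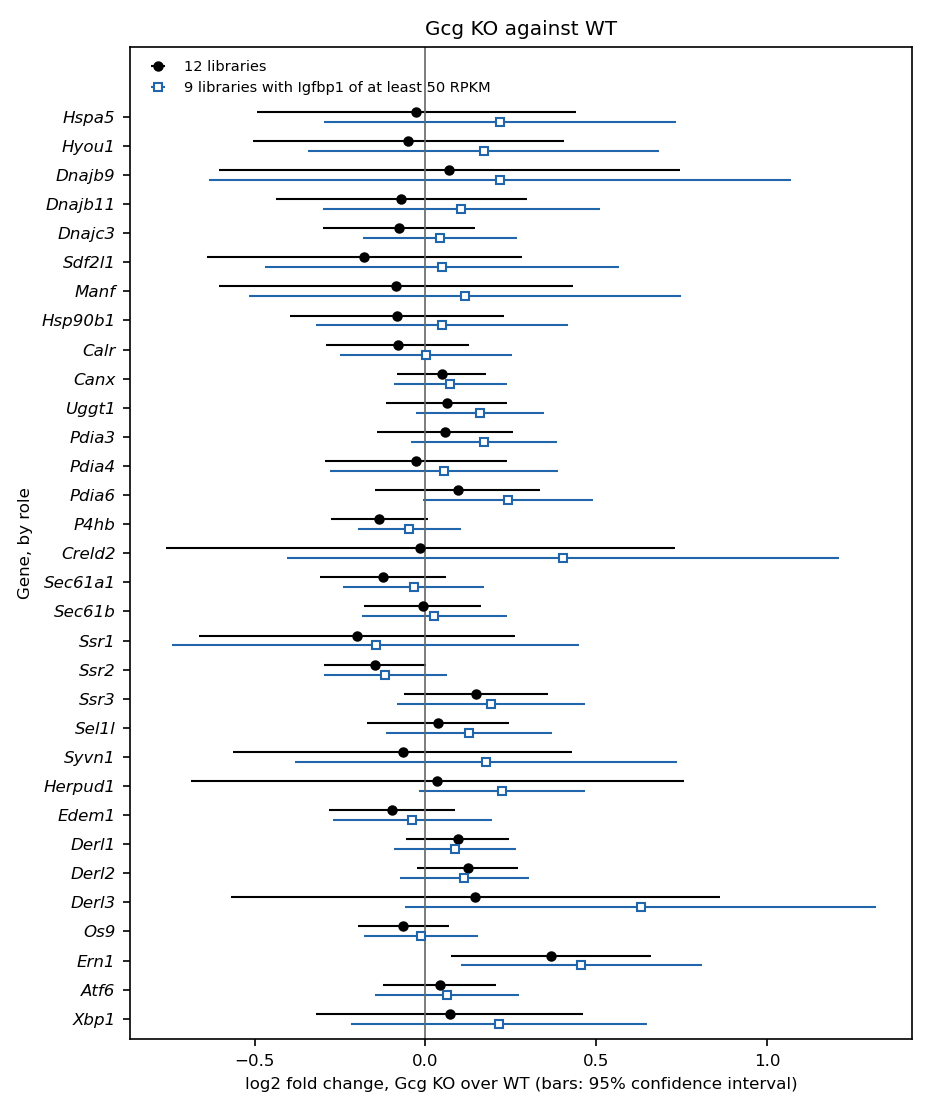
Log2 fold change of each gene, Gcg KO over WT, from limma on log2(RPKM + 0.5); bars are 95% confidence intervals, filled circles use 12 libraries and open squares the 9 with at least 50 RPKM of Igfbp1. Every bar but that of Ern1 crosses 0, and the open squares lie to the right of the circles for most genes.

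The Hsp70 system of the ER lumen is led by Hspa5 (BiP, Entrez 14828, chromosome 2, 34772090 to 34776529, GRCm38), the chaperone that binds unfolded chains and holds the sensors inactive. Hspa5 was 666, 408, 366, 253, 525 and 501 RPKM in WT 1 to WT 6, and 510.5, 445, 451, 280.4, 563 and 367 RPKM in Gcg KO 7 to Gcg KO 12. The range within WT thus enclosed every Gcg KO library. The means were 453 ± 143 and 436 ± 101 RPKM (SD, n = 6 each). Hspa5 had a log2 fold change of -0.03 (SE 0.22, 95% interval -0.49 to 0.44, limma adjusted p = 0.977), and of 0.22 in the 9 libraries (-0.30 to 0.73, limma adjusted p = 0.734).

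Hyou1 (Grp170, chromosome 9, 44379490 to 44392369) is a large Hsp70 relative that exchanges nucleotide on BiP. It was 99.3, 62.0, 53.7, 38.9, 83.4 and 74.7 RPKM in WT 1 to WT 6, and 82.6, 61.9, 70.4, 42.9, 75.0 and 55.9 RPKM in Gcg KO 7 to Gcg KO 12. Hyou1 followed the order of Hspa5 almost library by library, with WT 1 highest and WT 4 lowest. Its log2 fold change was -0.05 (SE 0.21, 95% interval -0.50 to 0.40, limma adjusted p = 0.957).

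Sdf2l1 (chromosome 16, 17130138 to 17132383), which forms a complex with the J proteins of BiP and is known to be induced in liver after a meal, was 49.3, 27.6, 20.8, 22.2, 38.5 and 34.5 RPKM in WT 1 to WT 6. In Gcg KO 7 to Gcg KO 12 it was 32.2, 25.4, 31.5, 18.1, 35.8 and 23.3 RPKM. The groups overlapped, with the highest library in WT and the lowest in Gcg KO. The log2 fold change of Sdf2l1 was -0.18 (SE 0.21, 95% interval -0.64 to 0.28, limma adjusted p = 0.774) and 0.05 in the 9 libraries.

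Manf (chromosome 9, 106888753 to 106891938), a secreted factor that steadies BiP bound to its client, was 218, 107, 98.7, 65.5, 140.1 and 147 RPKM in WT 1 to WT 6. In Gcg KO 7 to Gcg KO 12 Manf was 129.6, 101, 121, 83.0, 158 and 104 RPKM. WT 1 stood highest by a wide margin and WT 4 lowest, so the spread within WT (SD 52.6 RPKM) was larger than that within Gcg KO (SD 26.2 RPKM). The log2 fold change was -0.09 (SE 0.24, 95% interval -0.60 to 0.43, limma adjusted p = 0.927).

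Dnajb9 (ERdj4, chromosome 12, 44205897 to 44210068) is a J protein that brings BiP to IRE1 and is a known target of spliced XBP1. It was 69.3, 50.3, 45.3, 14.5, 30.6 and 34.4 RPKM in WT 1 to WT 6, and 64.4, 32.4, 38.8, 25.9, 43.5 and 35.8 RPKM in Gcg KO 7 to Gcg KO 12. The highest WT library held 4.78 times the RPKM of the lowest. The log2 fold change of Dnajb9 was 0.07 (SE 0.31, 95% interval -0.61 to 0.75, limma adjusted p = 0.959). The other J proteins were steadier: Dnajb11 was 55.1 ± 13.9 RPKM in WT and 52.0 ± 10.3 in Gcg KO. Dnajc3 (p58IPK) was 50.7 ± 5.41 and 48.2 ± 7.27 RPKM (SD, n = 6 each).

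Hsp90b1 (Grp94, chromosome 10, 86690841 to 86705444), the Hsp90 of the ER, was 459, 319, 299.7, 265, 446 and 372 RPKM in WT 1 to WT 6. In Gcg KO 7 to Gcg KO 12 it was 357, 315, 367, 261, 411 and 307 RPKM. Its order over libraries was close to that of Hspa5, over a narrower range. The log2 fold change of Hsp90b1 was -0.08 (SE 0.15, 95% interval -0.40 to 0.23, limma adjusted p = 0.860).

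The lectin chaperones calreticulin and calnexin hold newly made glycoproteins by their sugar, and Uggt1 marks misfolded ones for another round. Calr was 591 ± 75.7 RPKM in WT and 558 ± 64.0 in Gcg KO, Canx 121 ± 7.46 and 125 ± 7.90, and Uggt1 14.2 ± 1.03 and 14.9 ± 1.85 RPKM (SD, n = 6 each). None passed the test, and their log2 fold changes lay between -0.08 and 0.06. Canx was among the steadiest of the 32, with a highest library 1.23 times its lowest.

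Disulfide isomerases form and rearrange the disulfide bonds of secreted proteins. P4hb, the most abundant, was 584 ± 40.0 RPKM in WT and 532 ± 36.2 in Gcg KO, with a log2 fold change of -0.13 (95% interval -0.28 to 0.01, limma adjusted p = 0.353). Pdia3 was 277 ± 31.6 RPKM in WT and 288 ± 33.1 in Gcg KO, and Pdia4 was 107 ± 22.1 and 104 ± 11.9 RPKM (SD, n = 6 each). Pdia6 ranged from 113 to 177 RPKM over the 12 libraries. None of the 4 passed the test.

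Creld2 (Entrez 76737, chromosome 15, 88819646 to 88826681), a small ER protein with disulfide isomerase activity and an ERSE in the promoter shown above, was 64.0, 23.4, 20.2, 12.8, 33.9 and 35.0 RPKM in WT 1 to WT 6. In Gcg KO 7 to Gcg KO 12 Creld2 was 37.6, 28.8, 35.0, 15.0, 41.1 and 18.6 RPKM. WT 1 held 5.0 times the level of WT 4, both fed wild-type livers by label. The log2 fold change between genotypes was -0.01 (SE 0.35, 95% interval -0.76 to 0.73, limma adjusted p = 0.991), and 0.40 in the 9 libraries (-0.40 to 1.21, limma adjusted p = 0.672).

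The genes of translocation were among the steadier ones. Sec61a1, the channel itself, was 65.8 ± 6.65 RPKM in WT and 60.3 ± 6.47 in Gcg KO, and Sec61b was 72.5 ± 8.71 and 71.8 ± 4.89 RPKM. Ssr2, a subunit of the translocon-associated complex that assists the channel, was 45.4 ± 4.67 and 40.8 ± 1.88 RPKM (SD, n = 6 each), a log2 fold change of -0.15 with a limma adjusted p of 0.327. Ssr3 ranged from 62.5 to 105 RPKM. Ssr1 of the same complex was 37.8 RPKM in WT 5 and 11.3 to 19.4 RPKM in the other 11 libraries. That library alone set the Ssr1 difference: the log2 fold change was -0.20 with it and 0.0096 without it. Neither value passed the test.

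**Figure D2:**
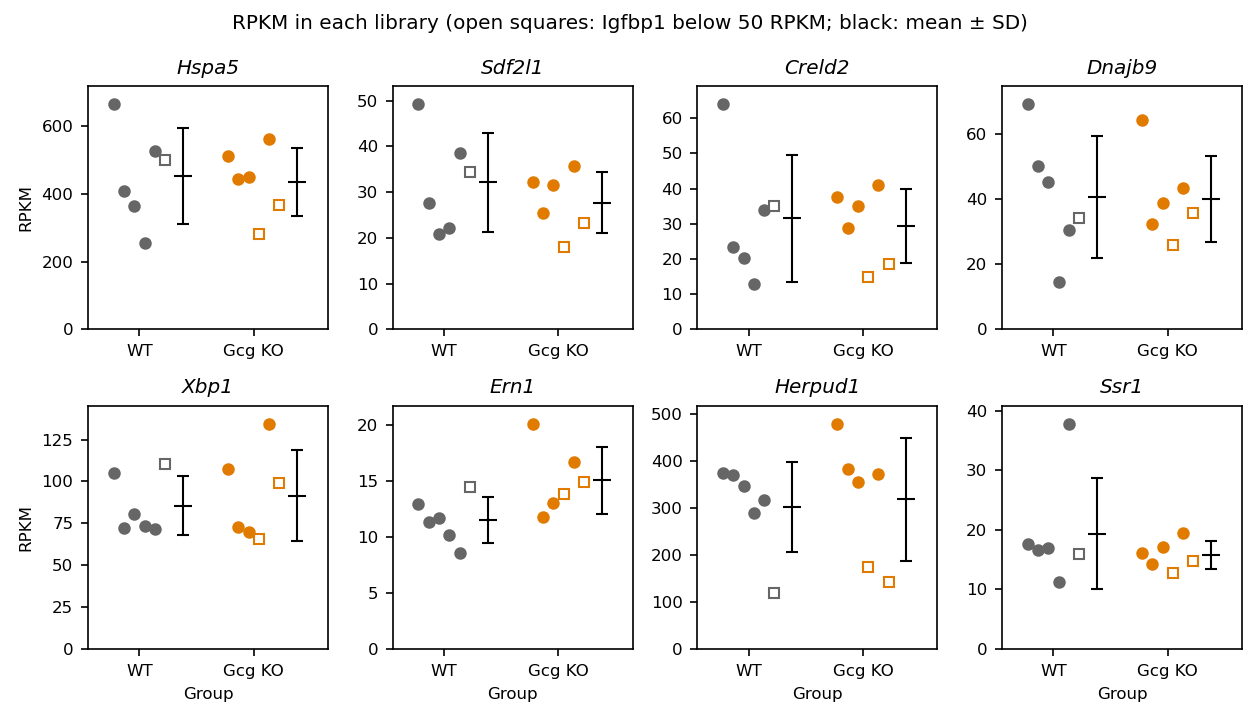
RPKM of 8 genes in each library, grey for WT and orange for Gcg KO; open squares are the 3 libraries with Igfbp1 below 50 RPKM, and black bars are the mean ± SD of 6 libraries. WT and Gcg KO overlap in each panel, the open squares are lowest for Herpud1, and 1 WT library stands apart for Ssr1 at 37.8 RPKM.

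Degradation of misfolded ER proteins runs through the ligase Syvn1 (Hrd1) and its partner Sel1l, with Derl1 to Derl3 in the membrane and Edem1 and Os9 picking the substrates. Syvn1 was 36.9 ± 13.2 RPKM in WT and 34.3 ± 8.49 in Gcg KO, and Sel1l was 31.9 ± 4.46 and 32.6 ± 3.0 RPKM. Os9 was 67.3 ± 4.26 and 64.3 ± 4.53 RPKM (SD, n = 6 each), the narrowest relative range of the 32, its highest library being 1.20 times its lowest. Edem1 ranged from 29.4 to 40.5 RPKM, Derl1 from 34.7 to 45.1 and Derl2 from 18.7 to 24.8 RPKM. Derl3 ranged from 0.747 to 3.94 RPKM, about 12 to 61 reads, so counting error adds to its spread. None of these 7 passed the test. The exons of Syvn1 and Derl2 overlap those of Mrpl49 and Mis12 on the opposite strand, and the sources used here do not say whether reads were counted by strand.

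Herpud1 (Entrez 64209, chromosome 8, 94386429 to 94395371), a membrane protein that assembles the degradation complex, differed from the others in its 3 lowest libraries. It was 374, 371, 347, 289, 317 and 119.6 RPKM in WT 1 to WT 6, and 479, 382, 357, 176, 373 and 143 RPKM in Gcg KO 7 to Gcg KO 12. Its 3 lowest libraries were the 3 of low Igfbp1, at 119.6 to 176 RPKM against 289 to 479 RPKM in the other 9. Among the 32 genes this held for Herpud1 alone. WT 6 was low for Herpud1 while Hspa5 in that library, at 501 RPKM, was above the WT mean. Gcg KO 10 and Gcg KO 12, in contrast, were also the lowest Gcg KO libraries for Hspa5, at 280.4 and 367 RPKM.

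By genotype, Herpud1 had a log2 fold change of 0.04 (SE 0.33, 95% interval -0.69 to 0.76, limma adjusted p = 0.980) over 12 libraries. In the 9 others it was 0.22 (95% interval -0.02 to 0.47, limma adjusted p = 0.376). Other measures moved with the same 3 libraries. Pck1, a gluconeogenic enzyme that glucagon induces and insulin suppresses, was 85.3 to 504 RPKM in them and 845 to 1444 RPKM in the other 9. The summed level of the 8 neutrophil markers was 2.33 to 3.25 RPKM in the 3 and 18.4 to 67.9 RPKM in the 9, with 0 of the 8 at 0 in every library. S100a8, of that list, was 0.496 to 1.12 and 7.14 to 24.9 RPKM, while the defining marker Ly6g did not separate them, at 0.0923 to 0.317 and 0 to 0.346 RPKM. Their part in the Herpud1 values was not tested.

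The sensors and their factor form the last group. Ern1 (Entrez 78943, chromosome 11, 106397620 to 106487796) was 13.0, 11.4, 11.7, 10.2, 8.63 and 14.5 RPKM in WT 1 to WT 6, and 20.1, 11.8, 13.1, 13.9, 16.8 and 15.0 RPKM in Gcg KO 7 to Gcg KO 12. The groups overlapped between 11.8 and 14.5 RPKM. The means were 11.6 ± 2.06 and 15.1 ± 2.99 RPKM (SD, n = 6 each). On the log2 scale the difference was 0.37 (SE 0.14, 95% interval 0.07 to 0.66). Ern1 had the lowest p of the 32 (unadjusted 0.0179) and did not pass after adjustment (limma adjusted p = 0.189, and 0.183 in the 9 libraries with a log2 fold change of 0.46). No alternative brought it past the threshold.

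Atf6 (chromosome 1, 170704457 to 170868585) was 11.8, 13.2, 12.5, 10.6, 12.8 and 12.4 RPKM in WT 1 to WT 6, and 14.0, 11.1, 14.2, 11.4, 11.8 and 13.2 RPKM in Gcg KO 7 to Gcg KO 12. It varied little in either group, and its log2 fold change was 0.04 (95% interval -0.12 to 0.21, limma adjusted p = 0.869). Xbp1 (chromosome 11, 5520641 to 5525993) was 105, 71.9, 80.6, 73.2, 71.9 and 110.4 RPKM in WT 1 to WT 6, and 108, 72.8, 69.6, 65.5, 134 and 99.3 RPKM in Gcg KO 7 to Gcg KO 12. High and low libraries of Xbp1 occurred in both genotypes. Its log2 fold change was 0.07 (95% interval -0.32 to 0.46, limma adjusted p = 0.915).

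The larger differences were between libraries of the same genotype. Over the 12 libraries the coefficient of variation had a median of 13.2% for the 32 genes, 15.2% for all tested genes and 11.4% for the 3963 tested genes with a mean of at least 10 RPKM. Of the 31 listed genes with such a mean it was above 20% for 12, against 17.5% of those 3963 genes, and below 10% for 8. The remaining gene, Derl3, had 57.3%. The highest library held 5.0 times the lowest for Creld2, 4.78 times for Dnajb9, 3.33 times for Manf, 3.09 times for Syvn1 and 2.63 times for Hspa5. WT 1 was the highest library for 15 of the 32 genes. WT 4 was the lowest for 16 and Gcg KO 10 for 9.

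**Figure D3:**
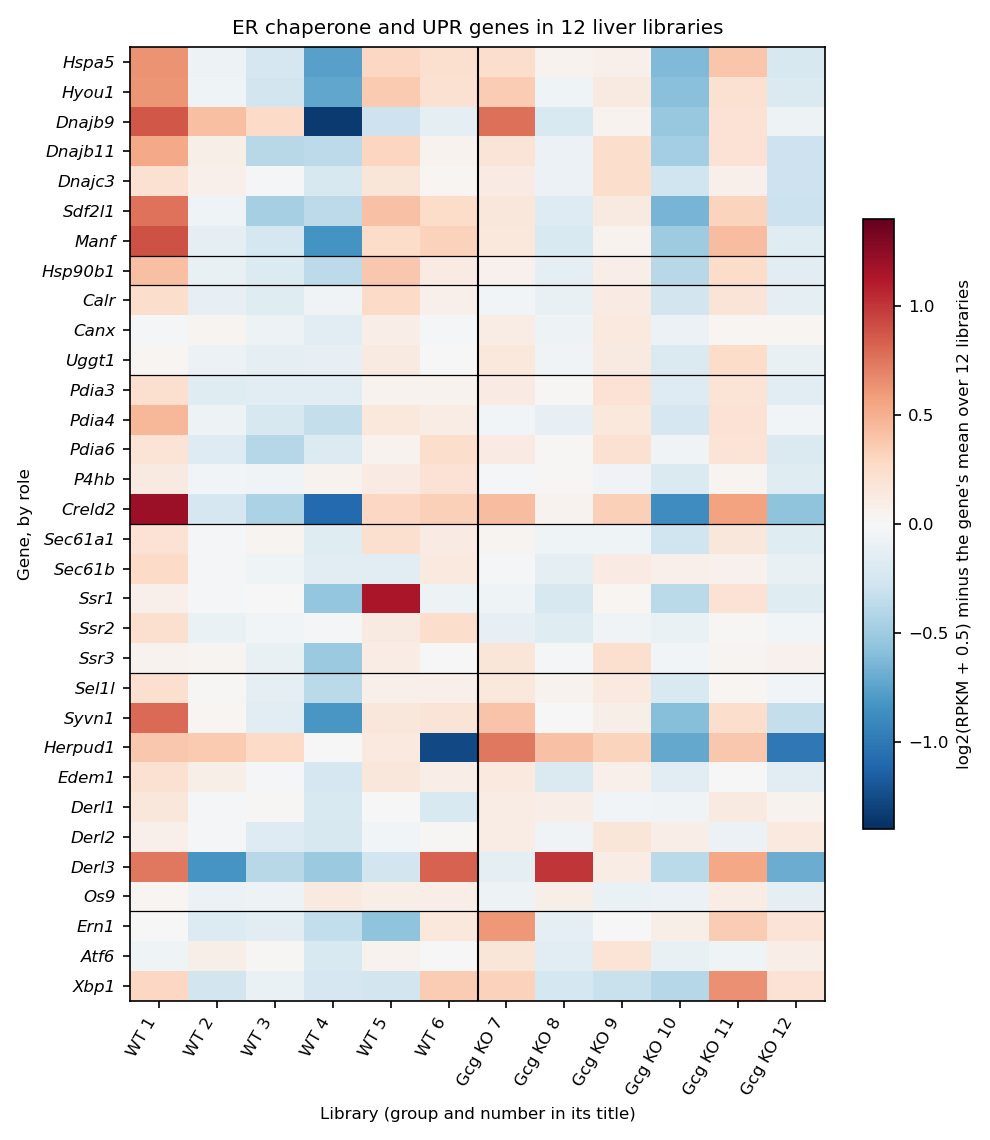
Each gene's log2(RPKM + 0.5) minus its mean over the 12 libraries, with genes in rows by role and libraries in columns. The column of WT 1 is red and those of WT 4 and Gcg KO 10 are blue for most chaperones, while Herpud1 is lowest in WT 6 and Gcg KO 12 and Ssr1 stands out in WT 5.

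WT 1 and WT 4 differed in other measures as well. Alb was 24883 RPKM in WT 1, 31956 in WT 4 and 29517 in Gcg KO 10, the last 2 being the highest values of Alb. The summed hepatocyte markers were 46385, 56351 and 51089 RPKM in these 3 libraries, and the summed Kupffer cell markers were 108, 118 and 99.7 RPKM. The summed neutrophil markers were 67.9, 39.1 and 2.33 RPKM, the first being the highest and the last the lowest of all 12 libraries. The summed endothelial markers were 69.2, 88.7 and 113 RPKM, the last again the highest of the 12. High Alb was not limited to libraries of low chaperone levels. Gcg KO 11, below only WT 1 for Hspa5 at 563 RPKM, held 28164 RPKM of Alb. Its summed hepatocyte markers were 54060 RPKM and its summed Kupffer cell markers 124 RPKM. Plasma cells also express much ER chaperone RNA. The 9 plasma and B cell markers in the table summed to 72.4 to 79.8 RPKM in WT and 33.3 to 46.7 RPKM in Gcg KO. Most of that sum was Sdc1, which hepatocytes also express and which fell from 74.2 ± 2.70 to 36.9 ± 5.22 RPKM (SD, n = 6 each; log2 fold change -1.01, limma adjusted p = 1.04e-05). The more specific Jchain lay between 0.152 and 0.918 RPKM and Mzb1 between 0 and 0.455 RPKM over the 12 libraries. RPKM values of a library share 1 total, and the part of these differences in the chaperone levels was not tested.

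Levels of many of the 32 genes varied together over the libraries. With log2 values of Hspa5 on the x axis, Pearson's r was above 0 for 30 of 30 other genes, with a median of 0.75 (-0.06 over the 11346 other tested genes). Herpud1 was left out of this count because its libraries form separate clusters. For 16 of the 30 the permutation p, adjusted by Benjamini-Hochberg over 239 relations, was below 0.05 (17 by Spearman's rho). An r of at least 0.9 was reached by 8 of the 30 and by 14 of all 11346 genes (0.123%). The points share their library, its depth and its total.

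Hyou1 followed Hspa5 with r = 0.98 and rho = 0.97 (permutation p = 1e-05 for both, the smallest that 100000 resamples can give, adjusted p = 2.99e-04 for r). Creld2 had r = 0.98 and rho = 0.95, Syvn1 0.97 and 0.95, Manf 0.96 and 0.96, and Hsp90b1 0.94 and 0.96. These genes act at different steps, as nucleotide exchanger, isomerase, ligase, BiP cofactor and Hsp90. Sel1l had r = 0.92, Sdf2l1 0.91, Dnajb11 0.91 and Pdia4 0.90.

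The sensors and Xbp1 did not follow as closely. Atf6 had r = 0.36 and rho = 0.23 (permutation p = 0.258 and 0.471), Ern1 0.25 and 0.28 (permutation p = 0.427 and 0.378), and Xbp1 0.59 and 0.46 (permutation p = 0.0457 and 0.135). None of the 3 passed after adjustment. Eif2ak3, the remaining sensor, had r = 0.54 and rho = 0.46 (permutation p = 0.0703 and 0.133) and did not pass either. Weak relations were not limited to the sensors and Xbp1. Os9, a lectin of the degradation pathway, had r = 0.23 and rho = 0.30 (permutation p = 0.459 and 0.344). Derl2 had r = 0.31, Sec61b 0.49, Ssr2 0.50, P4hb 0.57 and Derl1 0.58, and none of these passed after adjustment. Herpud1 had r = 0.55 and rho = 0.47 within the 9 libraries (exact permutation p = 0.129 and 0.213).

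Without WT 4 and Gcg KO 10, the 2 libraries farthest from the median of Hspa5, the median r of the 30 was 0.67 and 10 passed in place of 16. The relations of Hyou1 (r = 0.95), Creld2 (0.97), Manf (0.94) and Syvn1 (0.93) held, and that of Dnajb9 rested on those libraries, its r going from 0.74 to 0.37. Within the 9 libraries of higher Igfbp1 the median r was 0.75 and 12 of 30 passed. The r was positive within both genotypes, each over 6 libraries, for 27 of the 30.

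**Figure D4:**
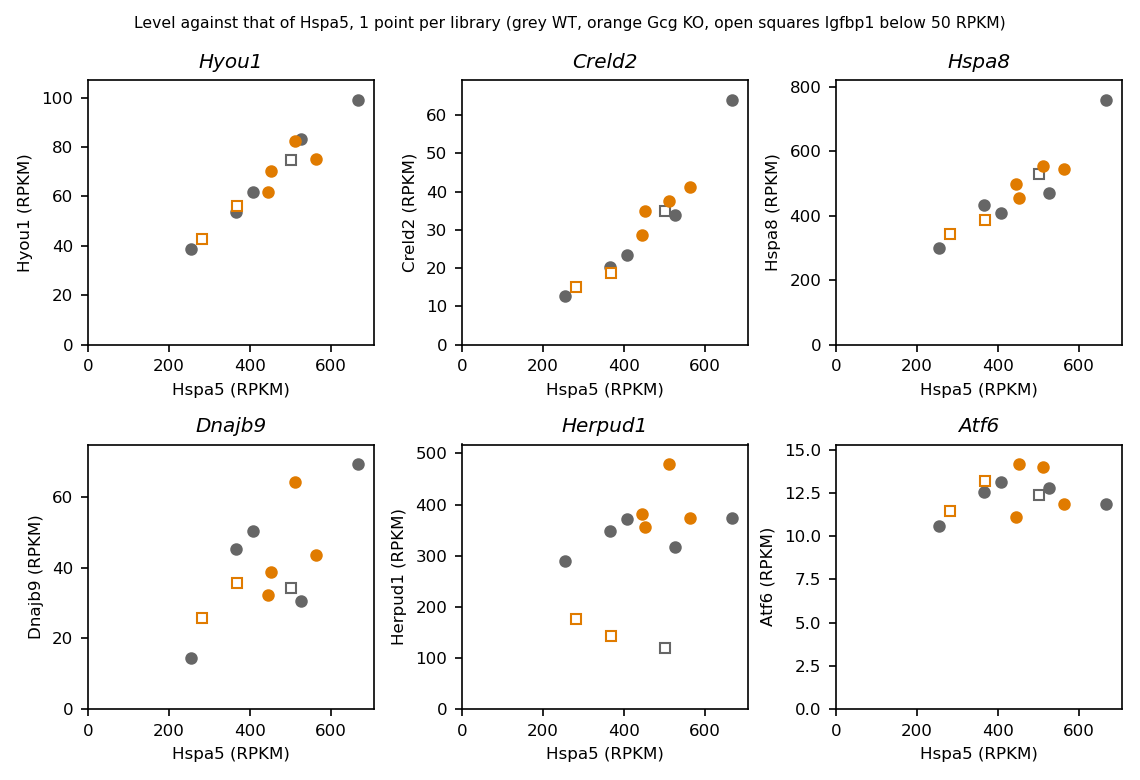
RPKM of 6 genes against RPKM of Hspa5, with 1 point per library, grey for WT, orange for Gcg KO and open squares for Igfbp1 below 50 RPKM. Hyou1, Creld2 and the cytosolic chaperone Hspa8 lie close to a line through both genotypes, Herpud1 splits into the 3 open squares and the other 9 points, and Atf6 is flat.

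Besides Hspa5, the genes with an ERSE match had a median r of 0.78 (lowest 0.60, highest 0.98) with Hspa5, and those without it, Herpud1 left out, a median of 0.70 (lowest 0.23, highest 0.92). The median coefficient of variation was 18.8% for the 9 genes with the element and 11.8% for the 17 without. These ranges overlap. Creld2 and Syvn1, which hold it, had r = 0.98 and 0.97, while Canx, which also holds it, had r = 0.60. Sdf2l1 (r = 0.91) and Pdia4 (r = 0.90) had no match within their windows. Dnajb11 (r = 0.91), which holds ERSE-II, was counted among the genes without an ERSE. Genes without a window were in neither group, among them Hyou1 (r = 0.98), Manf (0.96) and Atf6 (0.36).

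Outside the 32 genes, 10 further lists of the same pathways held 216 genes, of which 208 were tested. By genotype 3 of the 208 were higher in Gcg KO and 3 lower with limma at an adjusted p below 0.05. Of all tested genes 1.95% were higher and 1.92% lower. In the 9 libraries there were 5 and 2, where 1.13% and 1.52% of all tested genes passed. Of the PERK and ATF4 arm, 0 of 17 rose and 2 fell. Asns, asparagine synthetase, was 8.64, 1.69, 3.52, 4.08, 1.96 and 1.77 RPKM in WT 1 to WT 6 and 0.353, 0.273, 0.382, 0.190, 1.04 and 0.858 RPKM in Gcg KO 7 to Gcg KO 12. Every Gcg KO library of Asns was below every WT library (log2 fold change -1.88, SE 0.33, limma adjusted p = 0.0054). Atf5, a transcription factor, fell from 123.9 ± 7.13 to 92.2 ± 2.62 RPKM (SD, n = 6 each; log2 fold change -0.42, limma adjusted p = 3.3e-04). Other genes of that arm did not pass: Atf4 was 62.8 ± 10.3 and 64.1 ± 6.14 RPKM, Ddit3 (CHOP) 4.87 ± 1.16 and 5.15 ± 0.938, and Eif2ak3 itself 5.23 ± 1.54 and 4.50 ± 1.13 RPKM.

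Among the other ER lists, Nucb1, a calcium-binding protein of the secretory pathway, rose from 57.1 ± 3.21 to 69.6 ± 2.25 RPKM (log2 fold change 0.28, limma adjusted p = 0.0067), 1 of 25 other chaperones. Sar1b, the GTPase that starts ER export, rose from 92.3 ± 8.78 to 123 ± 13.3 RPKM (log2 fold change 0.41, limma adjusted p = 0.0133), 1 of 32 export genes. In the 9 libraries the log2 fold change of Sar1b was 0.39 and did not pass (limma adjusted p = 0.0965). No gene passed among 11 other stress transducers, 18 other disulfide isomerases and oxidases, 26 other degradation genes, 23 other translocation genes and 21 oligosaccharyltransferase genes. In these the most abundant were Tmbim6 (502 ± 32.7 and 536 ± 41.7 RPKM), Qsox1 (164 ± 19.5 and 157 ± 19.7), Vcp (124 ± 4.66 and 123 ± 3.99), Serp1 (117 ± 17.1 and 123 ± 12.1) and Dad1 (77.7 ± 9.57 and 74.0 ± 3.22). Over those 5 lists 13 of 99 genes (13.1%) had an unadjusted p below 0.05, against the 15.7% of all tested genes. In the 9 libraries Ero1lb, an oxidase that recharges disulfide isomerases, passed with a log2 fold change of 0.83 (limma adjusted p = 0.0437, against 0.0627 over 12 libraries). Chac1 of the PERK and ATF4 arm and Hspa4l, a cytosolic Hsp70 relative, also passed there, at log2 fold changes of 1.34 and 0.62. Their limma adjusted p was 0.0427 and 0.0491 there, against 0.0808 and 0.131 over 12 libraries. Of 23 alternatives, Ero1lb passed in 3, Chac1 in 3 and Hspa4l in 2.

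Chaperones outside the ER were compared in the same way. Hspb1, a small cytosolic heat shock protein, rose from 14.0 ± 4.84 to 22.7 ± 2.43 RPKM (limma adjusted p = 0.0422), 1 of 25 cytosolic heat shock genes, and the call was lost in 11 of 23 alternatives. Hspa9, the mitochondrial Hsp70, fell from 169 ± 7.49 to 143 ± 8.20 RPKM (limma adjusted p = 0.0271), 1 of 10 mitochondrial chaperones, a call lost in 9 of 23 alternatives.

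Covariation with Hspa5 reached past the ER. Of the cytosolic heat shock genes 9 of 25 passed the adjusted permutation test over 12 libraries and 5 in the 9 libraries of higher Igfbp1, led by Hsph1 and Hspa8, both with r = 0.95 over 12. Hspa8 was 759.7 RPKM in WT 1 and 299.8 in WT 4, the same extremes as for Hspa5. Among the ER export genes 12 of 32 passed (6 in the 9 libraries), of the oligosaccharyltransferase list 7 of 21 (3) and of the other translocation genes 5 of 23 (1). Without WT 4 and Gcg KO 10 the median r went from 0.64 to 0.36 for the heat shock genes and from 0.63 to 0.21 for the export genes. For the oligosaccharyltransferase list it was 0.47 with them and 0.55 without, and for the other translocation genes 0.49 and 0.41. An r of at least 0.8 was reached by 6 of 25 heat shock, 5 of 32 export, 3 of 21 oligosaccharyltransferase and 1 of 23 other translocation genes over 12 libraries, against 0.494% of all other tested genes. In the PERK and ATF4 arm 0 of 17 passed, and 0 of 11 other stress transducers, 0 of 18 other disulfide isomerases and oxidases and 0 of 10 mitochondrial chaperones. Of the other ER chaperones 2 of 25 passed (0 in the 9 libraries), with a median r of 0.09 over 12. Of the other degradation genes 2 of 26 passed (1), with a median r of 0.11. No relation that passed was negative.

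**Figure D5:**
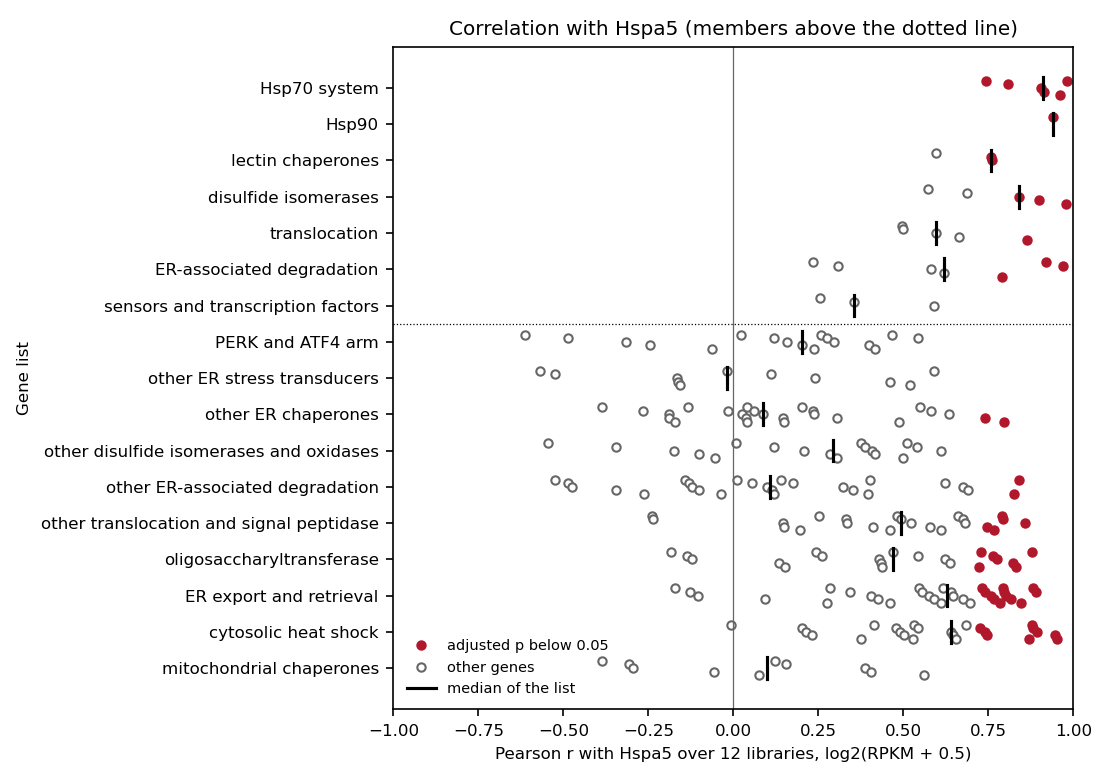
Pearson's r of each gene with Hspa5 over 12 libraries, by list; filled red points passed the permutation test after Benjamini-Hochberg adjustment over 239 relations, open points did not, and black ticks are list medians. The 30 genes above the dotted line all have r above 0, and the lists of the PERK and ATF4 arm and of mitochondrial chaperones hold no filled point.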

How the data were processed

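The authors deposited 1 table of RPKM values with 24475 genes and 12 library columns; the unit was read from its name and values. CASAVA 1.8.2, FastQC and the build GRCm38 appear in the submitters' processing notes. The sources used here do not give the aligner, the counter, its use of strand or the annotation. Exons of 10 of the 32 genes overlap another GENCODE gene, 3 of them on the same strand.

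Genes with a mean of at least 0.5 RPKM (11347) were tested on log2(RPKM + 0.5), a scale that understates changes of low genes, with limma 3.58.1 (R 4.3.3), a mean-variance trend, no covariate, two-sided tests and Benjamini-Hochberg adjustment over all tested genes, at 0.05. The script was tested on simulated data. Depth was estimated from the lowest steps of RPKM times transcript length (81 to 124 of 384 to 474 low genes per library lay within 1% of the step), and no count test was run. Correlations with Hspa5 used 100000 permutations over 12 libraries and all 362880 orders over 9, adjusted over 239 relations. Alternatives were the pseudocount, the filter, the scaling, the variance model and libraries left out.

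The 32 genes and all lists were chosen with earlier results of these data known. Values in every library are given for 11 of them, a panel of chaperones, co-chaperones and sensors; others are given by means or ranges. Of each further list, genes past the threshold were named, and otherwise the most abundant. Ssr1, genes named for covariation or for a call in the 9 libraries, and the marker genes were named after their values were seen, as were Atf4, Ddit3 and Eif2ak3.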

Additional observations from a re-analysis of the deposited data

Results flagged for a closer look

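In each genotype the highest and the lowest of 6 libraries were compared with the nearest other library, by Dixon's ratio of that gap to the whole range, for the 32 genes. Of 64 groups, 2 exceeded the critical value of 0.625, where chance gives about 1 in 20. Ssr1, a subunit of the translocon-associated complex, was 37.8 RPKM in WT 5, against 17.7 RPKM in the next WT library (ratio 0.76). Herpud1, of the degradation complex, was 119.6 RPKM in WT 6, against 289 RPKM in the next WT library (ratio 0.67).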

How the results depend on the processing

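No gene of the 32 passed in any of 23 alternatives (735 fits of a gene), and the lowest adjusted p was 0.111 in limma, for Ern1 without WT 6. The median log2 fold change of the 32 ranged from -0.10 to 0.11, and 18 of the 32 took the other sign in at least 1 alternative. Over all 23 alternatives, libraries left out included, the largest shift of the median log2 fold change of all genes was 0.027. Over all tested genes, there were 221 genes higher in Gcg KO and 218 genes lower in Gcg KO. Without the 3 libraries of low Igfbp1 128 were higher, a fit with fewer libraries. Leaving out 1 library at a time gave 136 to 261 higher and 141 to 210 lower, with the fewest calls without WT 3 in both directions; without Gcg KO 9, 142 were higher. The number of genes whose level followed Hspa5 went from 16 to 10 without the 2 libraries farthest from its median, an alternative chosen after seeing the data. Asns and Atf5 passed in 23 of 23 alternatives. No paired analysis was possible because the genotypes share no replicate number. Depth limits Derl3, at about 12 to 61 reads per library; for the other genes the spread between libraries sets the width of the intervals.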
